A study of Mus musculus with 18 samples.

Results

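The genes described here are 34 genes of the interferon response and of antigen presentation, measured in the striatum of mice carrying a Huntington's disease mutation, a reduced dose of the kinase subunit CK2α′, or both. They were taken by name from the 55421 genes of the count table, each symbol matched through its Ensembl identifier, and all 34 were found in it. By role they comprised 8 IRF and STAT transcription factors, 8 sensors and regulators of RNA, DNA and ubiquitin-like signalling, 13 antiviral effectors, and 5 genes of major histocompatibility complex (MHC) class I presentation and peptide transport. The rule that finds them in the table uses names and no measured value, but the list itself was drawn up with earlier results of these data known.

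Bulk total RNA was sequenced from the striatum of C57BL/6 mice aged 12 to 14 months, 1 library per mouse and 18 libraries in all. The WT group (n = 5) carried neither allele. The zQ175 group (n = 5) was heterozygous for a knock-in allele that places an expanded CAG repeat in the mouse huntingtin gene, so the mutant protein is made wherever that gene is active. The CK2a'(+/-) group (n = 3) lacked 1 copy of Csnk2a2, which encodes the catalytic kinase subunit CK2α′, in every cell, and the zQ175:CK2a'(+/-) group (n = 5) carried both alleles. The study set out to ask what lowering CK2α′ changes in the striatum of this Huntington's disease model. Csnk2a2, at 29.4 to 37.5 CPM (read counts scaled to a common library size) in the 10 libraries with both copies, lay between 14.7 and 19.9 CPM in the 8 CK2a'(+/-) carriers, so every library matched its label for this allele. Libraries held 13612381 to 22702547 counted reads. Some libraries stood apart: WT replicates 1 and 3, CK2a'(+/-) replicate 1 and zQ175:CK2a'(+/-) replicate 2 held choroid plexus RNA, zQ175 replicate 5 held the most RNA of cortical neurons, and zQ175 replicate 3 had reads of both Xist (47.0 CPM) and the Y-linked Ddx3y (62.3 CPM). For the 34 genes, values without them are given where they moved a printed fold change or median by over 1.5 times or turned its direction. By the study's methods, females outnumbered males in WT and zQ175:CK2a'(+/-), and males outnumbered females in zQ175 and CK2a'(+/-). Sex was thus unbalanced in zQ175 against WT, in zQ175 against zQ175:CK2a'(+/-) and in both comparisons with CK2a'(+/-). All mice were C57BL/6 by their labels. The study's methods add that the CK2a'(+/-) line came from a 129/SvEv and C57BL/6J background and was crossed with WT and zQ175 mice for over 10 generations, so that the animals used were on the C57BL/6J background.

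Interferons are signalling proteins released by cells that sense foreign or misplaced nucleic acid. Type I interferons bind a receptor whose kinases activate STAT proteins, and a complex of these with IRF9 switches on genes that carry an interferon-stimulated response element in their promoter. The products of those genes block virus replication, tag proteins with the ubiquitin-like ISG15, and load peptides onto MHC class I molecules, which show them at the cell surface together with beta-2 microglobulin. In brain tissue most of these genes are kept at a low tonic level, and microglia, the resident macrophages, are among the cells that express them. In bulk tissue, fewer cells of a type and less RNA per cell cannot be told apart.

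The promoters were searched for the motifs through which interferon signalling is known to act. RefSeq promoter sequences (GRCm38.p6, 250 bases before to 50 bases after each start) matched 25 of the 34 genes. The core of the interferon-stimulated response element, searched as GAAA, any 2 bases and GAAA on either strand, was found in 10 of the 25, against 3.99% of the 27025 genes with a promoter sequence. A form that is 1 base shorter, GAANNGAAA on either strand, was also found in 10 of the 25, against 8.68% of all genes, and 16 of the 25 held at least 1 of the pair, against 11.9%. The gamma-activated sequence TTCNNNGAA, which reads the same on both strands, was found in 7 of the 25, against 9.55%. The motifs may overlap one another, and a match is a run of letters, not a shown binding site. The sequences below were chosen because they belong to the best-known interferon targets of the group and to the genes whose levels are described in detail. The motif is in capitals, and each sequence reads 5′ to 3′ on the strand of its gene.
Isg15: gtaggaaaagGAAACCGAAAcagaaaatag
Ifit1: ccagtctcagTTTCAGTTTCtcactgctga
Ifit3: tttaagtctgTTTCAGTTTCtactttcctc
Oas1a: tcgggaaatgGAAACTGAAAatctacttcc
B2m: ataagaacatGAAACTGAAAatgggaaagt
H2-K1: atctccacagTTTCACTTCtgcacctaac
H2-D1: atctcctcagTTTCACTTCtgcacctaac
Trim25: tcctgttcagTTTCGATTCcttcctcgct
Irf1: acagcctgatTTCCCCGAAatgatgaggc
Irf8: caaaagtgatTTCTCGGAAagagagcgct

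Isg15 held 3 overlapping copies of the full core, of which the middle one, at chr4:156200871-156200900 on the minus strand, is shown. Ifit1 (chr19:34640794-34640823, plus strand) and Ifit3 (chr19:34583397-34583426, plus strand) each held 2 copies, and the Oas1a sequence lies at chr5:120907520-120907549 on the minus strand. The B2m core (chr2:122147538-122147567, plus strand) started at position -139, the start of the gene being position 0. H2-K1 (chr17:34000419-34000447, minus strand) and H2-D1 (chr17:35262934-35262962, plus strand) carried the same 9 letters of the shorter form, and Trim25 carried one across its start (chr11:88999389-88999417, plus strand). The Irf1 (chr11:53769914-53769942, plus strand) and Irf8 (chr8:120736177-120736205, plus strand) sequences show the gamma-activated form.

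All but 1 of the 34 genes were expressed at a level that could be tested, and most were low. Per kilobase of exon, B2m, the invariant light chain of MHC class I, was the highest by far, at 47.3 CPM per kilobase over the 18 libraries. H2-D1 and H2-K1, the classical class I heavy chains, stood at 8.81 and 3.78 CPM per kilobase, and Ifi27, an interferon-inducible membrane protein, at 6.84. In all, 13 genes lay between 1 and 10 CPM per kilobase and 20 below 1, and the median of the 34 was 0.695 against 2.68 for all genes tested. Isg15, Mx1, Zbp1, Ifi44 and Oas1a, products that strong interferon signalling raises steeply, stood at 0.524, 0.0989, 0.0931, 0.0909 and 0.0691 CPM per kilobase. Oas1a, a synthetase that activates RNase L, had no read in 7 libraries and at most 13 reads in any, and it did not pass the filter on low counts. Mx1 and Zbp1 had no read in 5 libraries each.

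**Figure D1:**
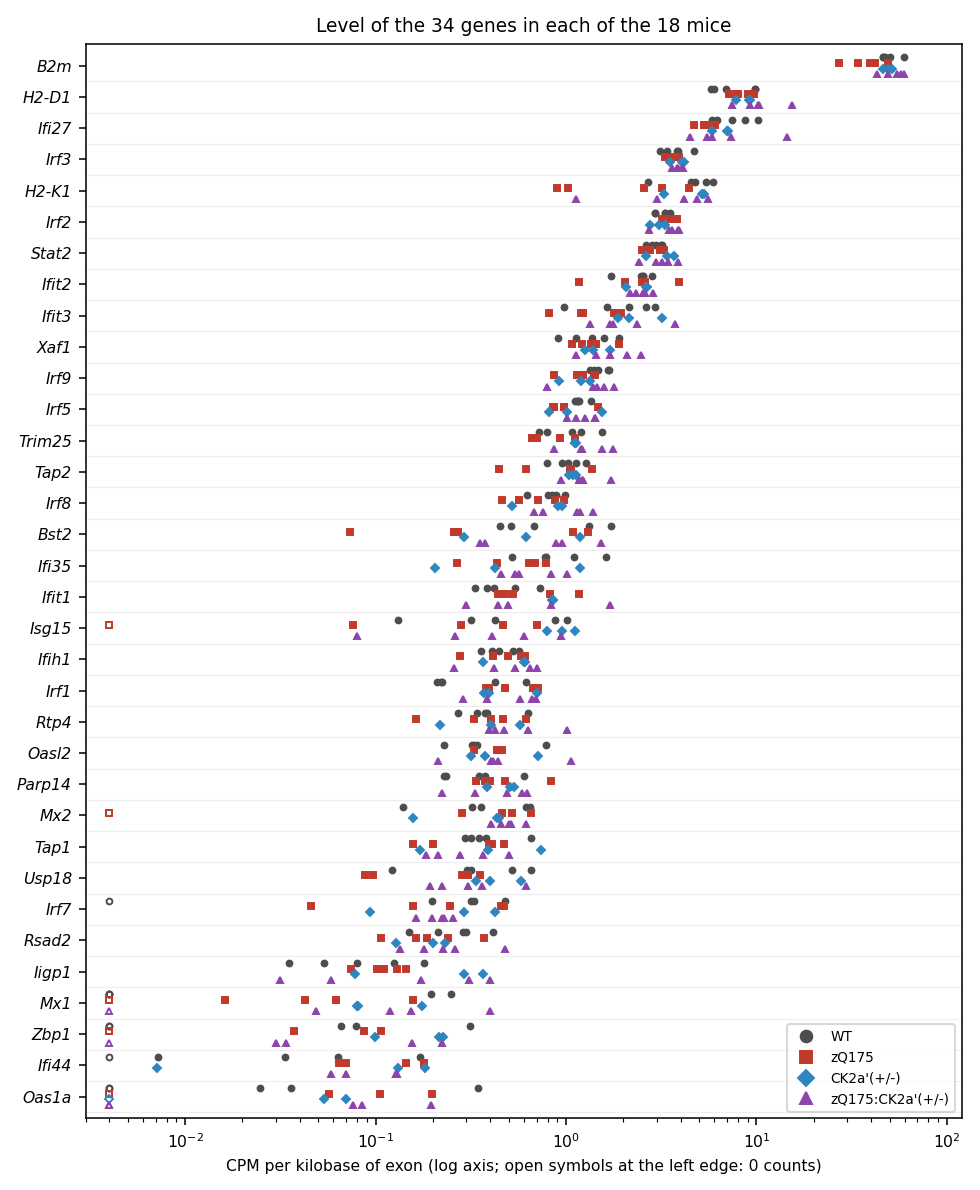
Level of each of the 34 genes (rows, highest at the top) in each of the 18 libraries, in CPM per kilobase of exon on a log axis, with 1 symbol per mouse and colour by group. B2m lies above every other gene in every library, and the 4 groups overlap in nearly every row.

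The interferon genes themselves were at or near 0. Of 9 ligand genes, 6 (Ifnb1, Ifng, Ifna1, Ifna4, Ifnl2 and Ifnl3) had no read in any of the 18 libraries, and the other 3 (Ifna2, Ifnk and Ifne) had 3, 2 and 5 reads summed over all libraries. At this depth that sets only an upper limit on their level. The receptor genes were expressed in all groups. In the edgeR fit of all 18 libraries described below, none of the 9 receptor and kinase genes was called in any comparison. Of all genes tested, 0.00478% to 1.10% were called. With only the 2 groups in the fit, Ifngr2 had an adjusted p of 0.0957 in zQ175:CK2a'(+/-) against CK2a'(+/-).

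Across the group as a whole, no gene was called in any of the 6 comparisons by edgeR's quasi-likelihood test (Benjamini-Hochberg adjusted p under 0.1 over all 20914 genes tested). In zQ175 against WT, 0 of 33 genes were called, where 1.10% of all genes tested were. At an unadjusted p under 0.05 there were 2, where 13.9% of all genes passed. DESeq2 called 1 gene, B2m, of the 23 for which it returned an adjusted p, where it called 5.26% of all such genes, and it gave 3 at an unadjusted p under 0.05 (16.6% of all genes). No gene had 5 zQ175 libraries that lay wholly apart from the 5 WT libraries, where 2.44% of all genes did. The median log2 fold change of the 33 genes was -0.19, with 21 lower and 12 higher, beside a median of 0.00 over all genes tested. With any 1 library left out the median lay between -0.28 and -0.11, the smallest without WT replicate 1, and it was -0.11 without the 4 libraries that hold choroid plexus RNA.

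In zQ175:CK2a'(+/-) against WT, 0 of 33 genes were called (0.0143% of all genes tested), 1 had an unadjusted p under 0.05 (9.13% of all genes) and 0 were without overlap (1.84% of all genes). DESeq2 called 0 (0.725% of all genes) and gave 1 at an unadjusted p under 0.05 (10.5% of all genes). The median log2 fold change was 0.11, with 22 genes higher and 11 lower. Leaving out 1 library took it from 0.06 (without WT replicate 2) to 0.19 (without zQ175:CK2a'(+/-) replicate 1), and it was 0.04 without the 4 libraries that hold choroid plexus RNA. In zQ175 against zQ175:CK2a'(+/-), the comparison in which the CK2α′ dose differs between mice that carry the mutation, 0 were called (0.0143% of all genes), 3 had an unadjusted p under 0.05 (6.27% of all genes) and 0 were without overlap (1.14% of all genes). DESeq2 called 0 (0.145% of all genes) and gave 4 at an unadjusted p under 0.05 (5.77% of all genes). Here 27 of the 33 genes were lower in zQ175 and 6 higher, with a median log2 fold change of -0.33 beside 0.01 over all genes tested. With any 1 library left out, 25 to 30 genes were lower and the median lay between -0.42 and -0.26. These 3 comparisons share libraries, so their directions are not separate observations.

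Without the mutation, CK2a'(+/-) against WT gave 0 calls (0.0143% of all genes), 0 genes at an unadjusted p under 0.05 (4.48% of all genes) and 2 of 33 without overlap (3.20% of all genes), at a median log2 fold change of 0.07. Leaving out 1 library took that median from -0.003 (without WT replicate 2) to 0.157 (without WT replicate 5), with 9 to 17 genes lower, and it was 0.04 without WT replicate 3 and 0.01 without CK2a'(+/-) replicate 2. It was 0.18 with the replicate number as a block and 0.03 with the Xist level as covariate. DESeq2 called 0 (0.0293% of all genes) and gave 1 at an unadjusted p under 0.05 (3.04% of all genes). In zQ175:CK2a'(+/-) against CK2a'(+/-) there were 0 calls (0.593% of all genes), 0 at an unadjusted p under 0.05 (9.19% of all genes) and 0 without overlap (8.34% of all genes), at a median of 0.10, and DESeq2 gave 0 by either measure (1.47% and 9.20% of all genes). That median turned to -0.04 without the 4 libraries that hold choroid plexus RNA and to -0.01 with the replicate number as a block, it was 0.19 with the Xist level as covariate, and with 1 library left out it lay between 0.04 (without zQ175:CK2a'(+/-) replicate 4) and 0.15 (without replicate 3 of that group). It was 0.06 without CK2a'(+/-) replicate 1 or zQ175:CK2a'(+/-) replicate 5. The interaction, which asks whether the effect of zQ175 differs with the CK2α′ dose, gave 0 calls (0.00478% of all genes) and 1 gene at an unadjusted p under 0.05 (5.39% of all genes), and DESeq2 also gave 0 and 1 (0.103% and 5.58% of all genes). Its median was 0.27, with 22 genes higher and 11 lower. Leaving out 1 library took it from 0.11 (without WT replicate 4 or zQ175:CK2a'(+/-) replicate 2) to 0.36, with 0.13 without WT replicate 5 and 0.16 without zQ175:CK2a'(+/-) replicate 3. It was 0.14 with the replicate number as a block and 0.15 without the 4 libraries that hold choroid plexus RNA. With only 3 CK2a'(+/-) libraries, these last comparisons were the least precise, with a median SE of 0.41 to 0.54 on the log2 scale for a single gene.

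**Figure D2:**
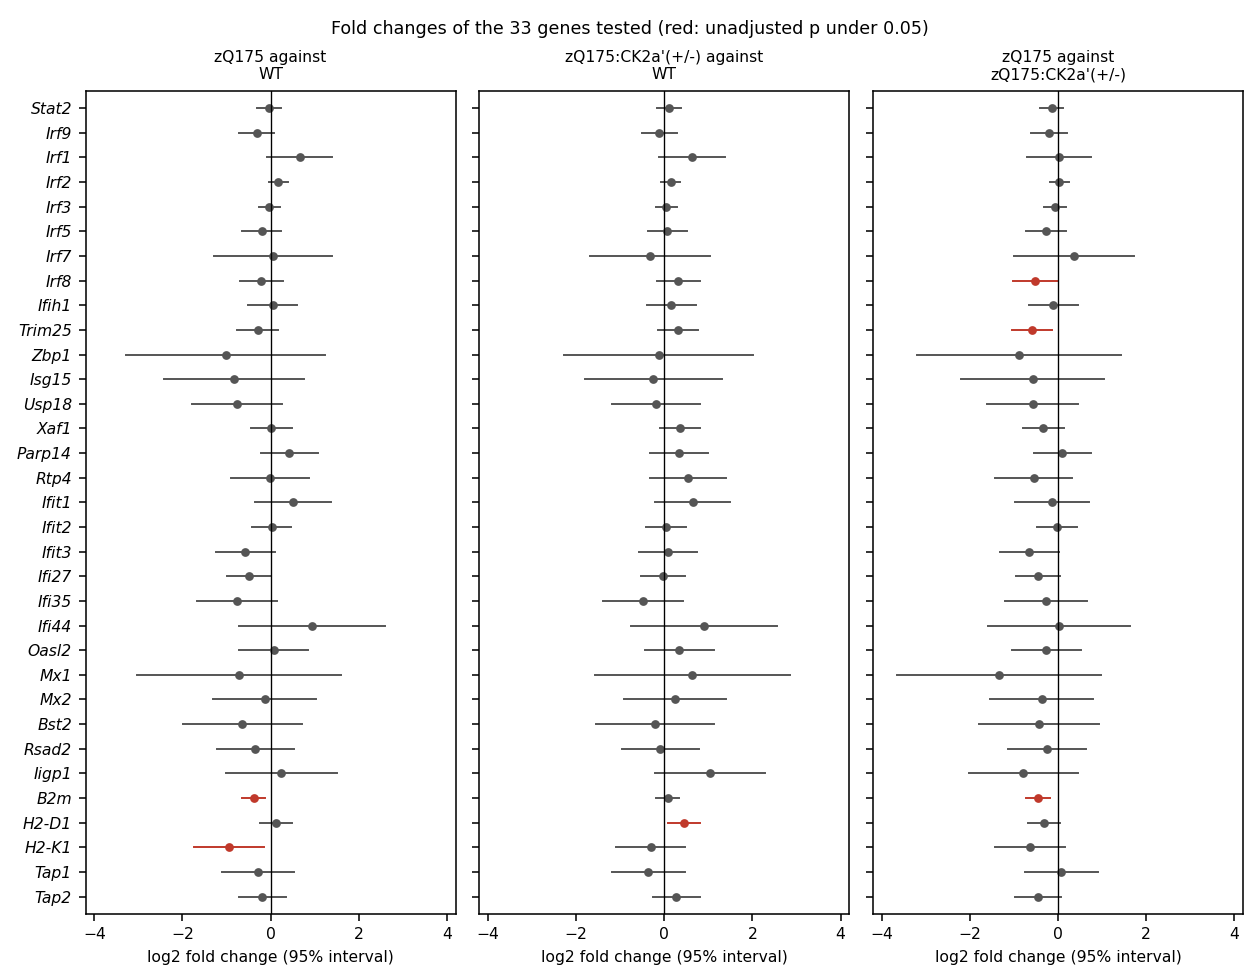
Log2 fold change of the 33 genes tested (points) with its 95% interval (lines) in 3 comparisons, genes ordered by role and those with an unadjusted p under 0.05 in red. B2m is lower in zQ175 in both comparisons that include zQ175 alone, and low-count genes such as Mx1 and Zbp1 have intervals several log2 units wide.

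The lowest p-value of the group belonged to a gene of MHC class I presentation in 4 of the 6 comparisons, the exceptions being CK2a'(+/-) against WT (Iigp1) and zQ175:CK2a'(+/-) against CK2a'(+/-) (Irf2). B2m (chr2:122147686-122153083, GRCm38) was at 40.9, 43.1, 39.7, 51.4 and 39.7 CPM in WT replicates 1 to 5 and at 33.7, 42.2, 23.3, 35.9 and 29.5 CPM in zQ175 replicates 1 to 5. Of the zQ175 libraries, 4 lay below every WT library, and replicate 2 lay inside the WT range. In CK2a'(+/-) it was at 39.9, 42.3 and 44.4 CPM, and in zQ175:CK2a'(+/-) at 36.8, 49.2, 42.4, 51.0 and 46.9 CPM, so both groups overlapped WT.

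The log2 fold change of B2m in zQ175 against WT was -0.38 (SE 0.127, 95% interval -0.65 to -0.12), with an edgeR adjusted p of 0.17. It was -0.46 (SE 0.127, interval -0.72 to -0.19) in zQ175 against zQ175:CK2a'(+/-), where the adjusted p was 0.482 although the unadjusted p was 0.00167. In the interaction the difference was 0.48 (SE 0.194, interval 0.080 to 0.887), with an unadjusted p of 0.021 and an adjusted p of 0.916. For zQ175 against WT, DESeq2 gave the same size (-0.38, SE 0.135) with an adjusted p of 0.0958, and leaving out zQ175 replicate 2 brought the edgeR adjusted p to 0.0847 at a log2 fold change of -0.50. Over all alternatives the adjusted p of this comparison ran from 0.0847 to 0.545.

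H2-K1 (chr17:33996017-34000347) was at 14.1, 7.88, 13.3, 15.9 and 17.5 CPM in WT, and at 12.98, 9.33, 3.01, 7.58 and 2.63 CPM in zQ175. The CK2a'(+/-) libraries were at 9.60, 15.2 and 15.6 CPM and the zQ175:CK2a'(+/-) libraries at 12.3, 3.30, 8.82, 16.4 and 14.4 CPM. The 3 lowest libraries were zQ175 replicates 3 and 5 and zQ175:CK2a'(+/-) replicate 2, and every other library lay at 7.58 CPM or more, so the spread within both groups was wide. zQ175 against WT gave a log2 fold change of -0.95 (SE 0.383, interval -1.74 to -0.15, adjusted p = 0.273). Without zQ175 replicate 3 it was -0.76 and without replicate 5 it was -0.74, while B2m was at -0.29 and -0.35.

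H2-D1 (chr17:35262730-35267499), the other classical heavy chain in this strain, did not follow the same order. It was at 17.8, 14.8, 15.4, 25.3 and 25.2 CPM in WT, at 18.4, 20.5, 24.9, 23.3 and 20.5 in zQ175, and at 23.9, 23.5 and 20.2 in CK2a'(+/-). In zQ175:CK2a'(+/-) it was at 26.3, 39.6, 26.5, 23.7 and 19.2 CPM, replicate 2 being the highest of all 18 libraries. zQ175:CK2a'(+/-) against WT gave a log2 fold change of 0.45 (SE 0.174, interval 0.089 to 0.814, adjusted p = 0.433), and against CK2a'(+/-) it was 0.26 (SE 0.202, adjusted p = 0.776). Without zQ175:CK2a'(+/-) replicate 2 these values were 0.28 and 0.09.

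Replicate 2 of zQ175:CK2a'(+/-) is also 1 of 4 libraries that hold choroid plexus RNA. The summed level of 7 choroid plexus markers (Ttr, Folr1, Kl, Clic6, Kcne2, Aqp1 and Otx2) was 3102 CPM there, 2082 in WT replicate 1, 1732 in WT replicate 3 and 982 in CK2a'(+/-) replicate 1, against 12.4 to 22.6 CPM in the other 14 libraries. Without these 4 libraries the log2 fold change of H2-D1 in zQ175:CK2a'(+/-) against WT was 0.13 in place of 0.45, whereas those of B2m and H2-K1 in zQ175 against WT were -0.44 and -0.95. No gene of the group was called in any comparison without them.

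The transporter genes Tap1 and Tap2, whose products carry peptides into the endoplasmic reticulum, were at 0.861 to 4.07 and 1.68 to 6.49 CPM with full overlap of the groups. Their log2 fold changes in zQ175 against WT were -0.29 and -0.19, with 95% intervals that included 0, and both rested on single libraries. Tap1 was at -0.04 without WT replicate 5, -0.13 without zQ175 replicate 3, -0.17 without zQ175 replicate 2 and -0.46 without zQ175 replicate 1. Tap2 was at -0.02 without zQ175 replicate 2, -0.09 without zQ175 replicate 3, -0.11 without WT replicate 1 and -0.38 without zQ175 replicate 1, and it was -0.08 without the 4 libraries that hold choroid plexus RNA. With the Xist level as covariate they were -0.48 and -0.30.

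**Figure D3:**
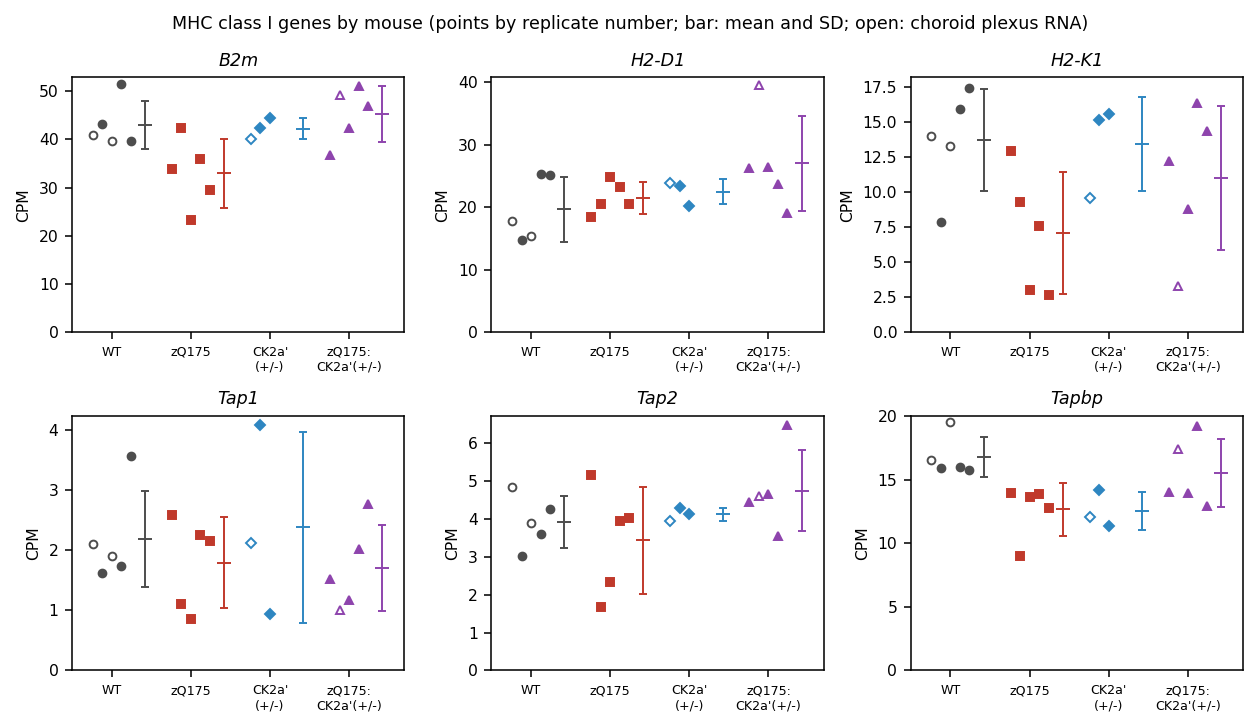
CPM of 5 MHC class I genes of the group and of Tapbp, the tapasin gene, in each mouse (points, in order of replicate number) with the group mean and SD (bar). Open symbols mark the 4 libraries whose choroid plexus markers sum to over 100 CPM. For B2m 4 of the 5 zQ175 points and for Tapbp all 5 lie below the WT points.

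The low H2-K1 libraries were also low in H2-T22 and H2-T23, other class I genes of the H2 interval on chromosome 17. Neither is among the pathway genes named for a low p-value. H2-D1 lies between them and H2-K1 and did not share that order. Levels of the other nonclassical class I genes tested are not given here. H2-T22 (chr17:36037128-36042747), a nonclassical class I gene, was at 0.615 and 0.161 CPM in the zQ175 mice numbered 3 and 5 and at 1.15 CPM in the zQ175:CK2a'(+/-) mouse numbered 2. All other libraries lay between 1.62 and 6.26 CPM. H2-T23 (chr17:36029773-36032855), which encodes the nonclassical molecule Qa-1, was at 0, 0.645 and 0.144 CPM in these same 3 libraries and between 0.844 and 5.94 CPM elsewhere. BC023719 (chr17:36111426-36117121), a gene of the same interval that was picked after its values were seen, showed the opposite order.

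BC023719 was at 3.32, 2.96 and 4.09 CPM in the 3 libraries with the lowest H2-K1 and at 2.98 in CK2a'(+/-) replicate 1. A lower level was read in WT replicate 2 (1.17), zQ175 replicate 4 (1.12) and zQ175:CK2a'(+/-) replicates 1 and 3 (1.46 and 1.53). In the other 10 libraries it had no read at all. The 8 libraries with BC023719 reads come from all 4 groups and include the 6 with the lowest H2-K1. Of the 3 libraries with the lowest H2-K1, 2 came from zQ175 mice that do not carry the CK2a'(+/-) allele. That allele lies on chromosome 8, so it does not show which H2 interval a mouse carries. Whether the mice differ in the sequence of this interval was not tested, and these counts cannot tell a change in RNA level from reads that match the reference less well.

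**Figure D4:**
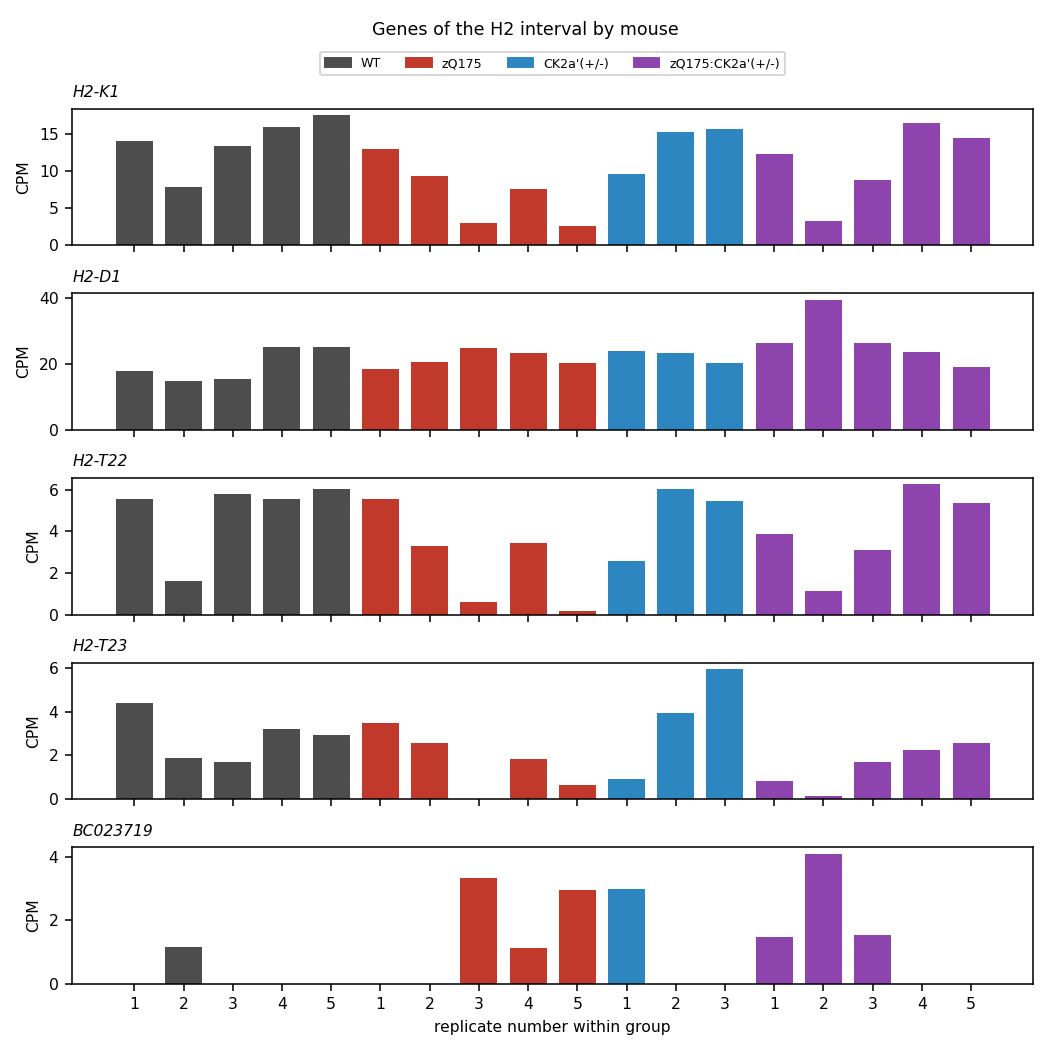
CPM of H2-K1, H2-D1, H2-T22, H2-T23 and BC023719 (rows) in each of the 18 libraries (bars, by group and replicate number). H2-K1, H2-T22 and H2-T23 are low together in zQ175 replicates 3 and 5 and zQ175:CK2a'(+/-) replicate 2, where BC023719 is at 2.96 to 4.09 CPM, and H2-D1 does not share that order.

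Among the transcription factors, only Irf9 in CK2a'(+/-) against WT had groups without overlap, and none was called. Irf8 (chr8:120736358-120756694), a factor that microglia and other myeloid cells require, was at 6.23, 4.41, 5.99, 6.93 and 5.70 CPM in WT and at 3.98, 6.89, 3.26, 5.01 and 6.18 in zQ175. It was at 3.69, 6.39 and 6.74 CPM in CK2a'(+/-) and at 8.33, 4.81, 5.33, 8.01 and 9.80 in zQ175:CK2a'(+/-), where 3 libraries exceeded every other library. In zQ175 against zQ175:CK2a'(+/-) its log2 fold change was -0.52 (SE 0.237, interval -1.01 to -0.03, adjusted p = 0.758), and in zQ175:CK2a'(+/-) against CK2a'(+/-) it was 0.38 (SE 0.275, adjusted p = 0.752). The latter was 0.15 without CK2a'(+/-) replicate 1 and 0.25 without zQ175:CK2a'(+/-) replicate 5.

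Fold changes of most microglial markers were negative in zQ175 against WT and against zQ175:CK2a'(+/-), as were those of Irf8 and B2m. Most of the markers were not called, and edgeR on all 18 libraries called neither gene. Of 15 markers 14 were tested, and 13 of the 14 were lower in zQ175 than in WT. EdgeR called 3 of them lower, where it called 1.10% of all genes tested. These were the complement genes C1qa (-0.64, adjusted p = 0.0707), C1qb (-0.62, adjusted p = 0.0946) and C1qc (-0.62, adjusted p = 0.0819). All 3 calls were lost without WT replicate 1, 3 or 5 or zQ175 replicate 1, 3 or 5 (adjusted p from 0.104 to 0.186), and other single libraries also ended those of C1qb and C1qc. Without the 4 libraries that hold choroid plexus RNA the values were -0.59, -0.69 and -0.70, at adjusted p-values of 0.498, 0.496 and 0.496. In zQ175 against zQ175:CK2a'(+/-) 12 of the 14 were lower and none was called, 8 having an unadjusted p under 0.05 (6.27% of all genes). The summed level of the list was 313 to 386 CPM in WT, 245 to 336 in zQ175, 279 to 361 in CK2a'(+/-) and 325 to 355 in zQ175:CK2a'(+/-). The part of these cells in the levels of B2m and Irf8 was not tested. Of 8 lymphocyte markers, 7 were at most 0.421 CPM in any library, among them Cd3e and Cd8a, while Cd4 alone was at 22.1 to 88.5 CPM.

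Irf9 (chr14:55603571-55610030), the DNA-binding partner of the activated STAT proteins, was at 9.02, 7.60, 8.99, 7.20 and 7.92 CPM in WT and at 7.17, 6.48 and 4.94 in CK2a'(+/-), all 3 below the WT range. It was at 7.55, 6.14, 6.64, 7.65 and 4.68 CPM in zQ175 and at 4.28, 9.62, 8.51, 7.48 and 7.81 in zQ175:CK2a'(+/-). In CK2a'(+/-) against WT its log2 fold change was -0.39 (SE 0.223, interval -0.85 to 0.07, adjusted p = 0.999) and -0.25 without CK2a'(+/-) replicate 3, and the interaction was 0.59 (SE 0.294, adjusted p = 0.916).

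Irf1 (chr11:53770014-53778374), an early activator of interferon and class I genes, was at 1.69, 0.838, 2.45, 0.888 and 0.880 CPM in WT and at 2.67, 1.56, 1.91, 1.52 and 2.85 in zQ175. It was at 1.57, 2.80 and 1.47 CPM in CK2a'(+/-) and at 2.65, 1.15, 1.53, 2.28 and 2.76 in zQ175:CK2a'(+/-). The 3 lowest of all 18 libraries were WT, and the 2 higher WT libraries are those with choroid plexus RNA. Its log2 fold change in zQ175:CK2a'(+/-) against WT was 0.64 (SE 0.361, interval -0.11 to 1.39, adjusted p = 0.614), and it was 1.40 (adjusted p = 1) without the 4 libraries that hold choroid plexus RNA.

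Irf2 (chr8:46739732-46847458), which can both activate interferon targets and compete with Irf1, was measured most precisely of these factors. It was at 25.9, 21.8, 21.6, 24.4 and 24.4 CPM in WT, at 23.6, 28.2, 27.6, 25.9 and 27.7 in zQ175, at 22.8, 20.4 and 24.4 in CK2a'(+/-), and at 20.2, 29.1, 28.8, 25.8 and 26.7 in zQ175:CK2a'(+/-). All groups overlapped, and the log2 fold change in zQ175:CK2a'(+/-) against CK2a'(+/-) was 0.21 (SE 0.121, interval -0.04 to 0.46, adjusted p = 0.646). Irf3, which relays nucleic acid sensing, and Stat2 were similarly even, at 10.8 to 16.2 and 14.4 to 22.8 CPM. Irf5 lay at 2.37 to 4.46 CPM and Irf7, the amplifier of type I interferon output, at 0 to 1.81 CPM.

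Of the sensors and regulators, Trim25 had the lowest p-value over the 6 comparisons, in zQ175 against zQ175:CK2a'(+/-). Its product is a ubiquitin and ISG15 ligase that acts on the RNA sensor RIG-I, and the gene (chr11:88999376-89020293) was at 5.34, 4.06, 3.81, 6.40 and 5.38 CPM in zQ175 and at 4.95, 6.96, 6.86, 10.1 and 8.89 in zQ175:CK2a'(+/-). Of the zQ175:CK2a'(+/-) libraries 4 lay above all zQ175 libraries and replicate 1 lay inside their range. It was at 8.87, 4.13, 6.20, 4.57 and 6.86 CPM in WT, which spanned most of both groups, and at 6.51, 6.43 and 6.41 in CK2a'(+/-). Its log2 fold change in zQ175 against zQ175:CK2a'(+/-) was -0.60 (SE 0.221, interval -1.06 to -0.14, adjusted p = 0.643).

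The other 7 sensors and regulators were the RNA sensor Ifih1 (2.10 to 5.74 CPM over all libraries), the Z-form nucleic acid sensor Zbp1 (0 to 1.11), Isg15 (0 to 0.788), its deconjugating protease Usp18 (0.246 to 1.82), the apoptosis factor Xaf1 (4.24 to 11.7), the ADP-ribosyltransferase Parp14 (2.08 to 7.78) and Rtp4 (0.348 to 2.15). In zQ175 against zQ175:CK2a'(+/-) 7 of the 8 genes of this role were lower, at a median log2 fold change of -0.57, and Trim25 alone had an unadjusted p under 0.05. All 8 were higher in CK2a'(+/-) than in WT, at a median of 0.19, and none had an unadjusted p under 0.05.

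Among the antiviral effectors, Ifi27 (chr12:103434211-103440239) was the most abundant per kilobase. It was at 14.9, 8.55, 12.7, 10.9 and 9.13 CPM in WT, at 7.78, 8.86, 8.49, 7.91 and 6.88 in zQ175, at 10.5, 10.3 and 8.54 in CK2a'(+/-), and at 6.53, 21.2, 8.57, 10.7 and 8.11 in zQ175:CK2a'(+/-). The 3 highest libraries, zQ175:CK2a'(+/-) replicate 2 and WT replicates 1 and 3, are those with the highest summed choroid plexus markers. The log2 fold change was -0.49 in zQ175 against WT (SE 0.240, interval -0.99 to 0.00, adjusted p = 0.362) and 0.66 in the interaction (SE 0.367, adjusted p = 0.916), and without the 4 libraries with choroid plexus RNA these were -0.25 and 0.10. Without zQ175:CK2a'(+/-) replicate 2 alone the interaction was 0.29. The part of choroid plexus RNA in these values was not tested further.

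Ifit1 (chr19:34640871-34650009), which binds viral RNA that lacks a methylated cap, was at 1.94, 1.12, 1.02, 0.888 and 1.44 CPM in WT and at 2.27, 2.23 and 2.27 in CK2a'(+/-), so these groups did not overlap. It was at 3.09, 1.27, 1.17, 2.18 and 1.40 CPM in zQ175 and at 0.788, 2.23, 1.16, 4.51 and 1.32 in zQ175:CK2a'(+/-), a span that covered both. CK2a'(+/-) against WT gave a log2 fold change of 0.81 (SE 0.463, interval -0.15 to 1.77, adjusted p = 0.999).

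Iigp1 (chr18:60376027-60392634), an interferon-inducible GTPase that attacks parasite vacuoles, was at 1.05, 0.726, 0.204, 0.311 and 0.463 CPM in WT and at 0.455, 1.71 and 2.14 in CK2a'(+/-). It was at 0.844, 0.753, 0.430, 0.594 and 0.645 CPM in zQ175 and at 0.338, 1.00, 0.184, 2.34 and 1.80 in zQ175:CK2a'(+/-). All 4 libraries above 1.1 CPM were from CK2a'(+/-) carriers, and the other 4 carriers were at 1.00 CPM or less. The log2 fold change was 1.35 in CK2a'(+/-) against WT (SE 0.663, interval -0.02 to 2.73, adjusted p = 0.999) and 1.03 in zQ175:CK2a'(+/-) against WT (SE 0.598, interval -0.21 to 2.27, adjusted p = 0.627). Without zQ175:CK2a'(+/-) replicate 4 the latter was 0.58, and without the 4 libraries that hold choroid plexus RNA the former was 1.94. These values rest on 3 to 44 reads per library.

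**Figure D5:**
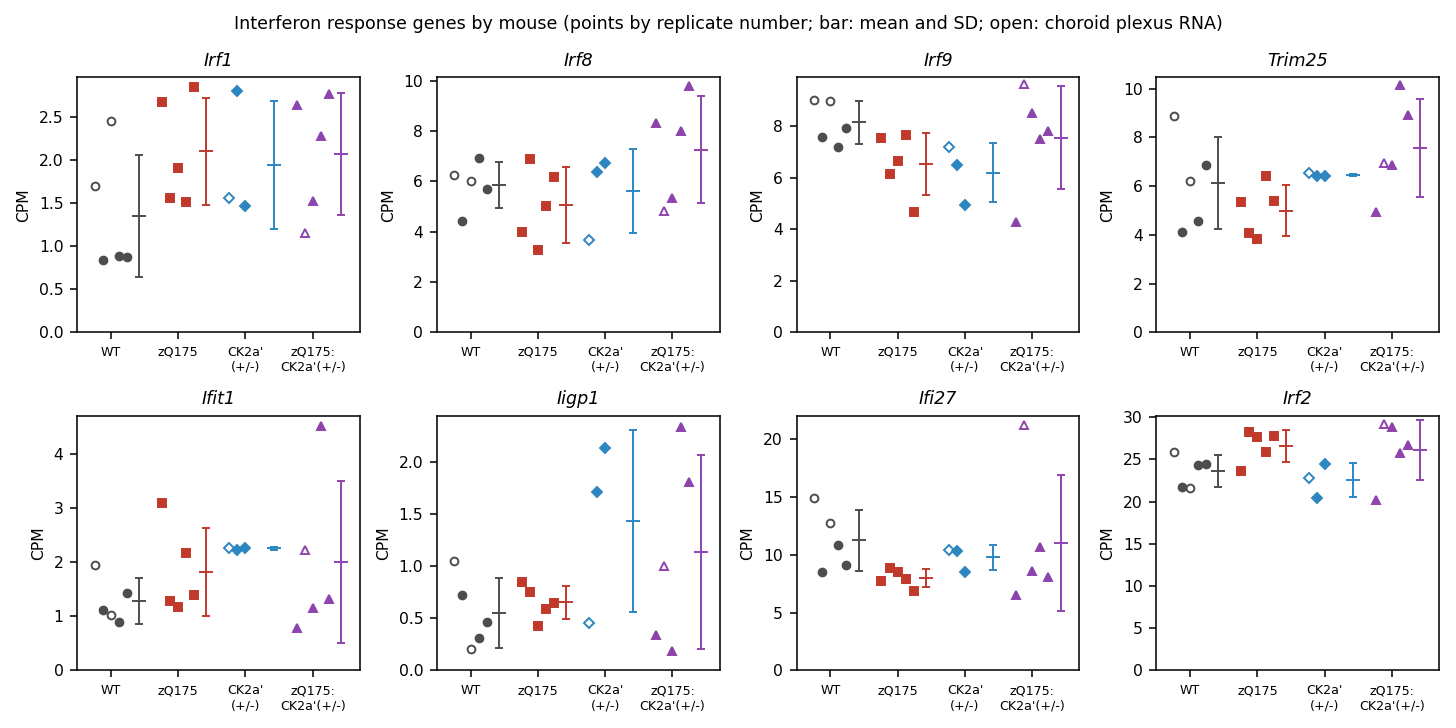
CPM of 8 interferon response genes in each mouse (points, in order of replicate number) with the group mean and SD (bar), and open symbols for the 4 libraries whose choroid plexus markers sum to over 100 CPM. In the comparisons made, the groups overlap for every gene except Irf9 and Ifit1 in CK2a'(+/-) against WT, and the 3 highest Ifi27 points are open symbols.

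Besides Oas1a, 9 other effectors remained. Ifit2, the most abundant of them, was at 4.58 to 15.4 CPM, and Ifit3 at 1.41 to 6.55. Oasl2, an RNA-binding relative of the oligoadenylate synthetases, was at 1.35 to 6.79 CPM. Rsad2, which encodes viperin, was at 0.462 to 2.08, the tetherin gene Bst2 at 0.0659 to 1.55, Ifi35 at 0.354 to 2.80, Ifi44 at 0 to 1.11, and the dynamin-like GTPase genes Mx1 and Mx2 at 0 to 1.51 and 0 to 2.37. In zQ175 against zQ175:CK2a'(+/-) 11 of the 12 effectors tested were lower, at a median log2 fold change of -0.32, and none had an unadjusted p under 0.05.

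Some single libraries carried the highest value of many genes. zQ175:CK2a'(+/-) replicate 2 held the highest CPM of the 18 libraries for 8 of the 33 genes, where it held that of 6.52% of all genes tested. WT replicate 4 and zQ175:CK2a'(+/-) replicate 4 each held the highest for 5 of the 33 (6.67% and 4.48% of all genes), the latter for Stat2, Trim25, Ifit1, Oasl2 and Iigp1. No zQ175 library was highest for more than 2.

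The wider pathway gave the same count of calls. Of 118 further genes listed for it, 92 were tested, and none was called in any comparison of the fit to all 18 libraries. Of all genes tested, 0.00478% to 1.10% were called. In zQ175 against WT 1 of the 92 was without overlap (2.44% of all genes), and in zQ175:CK2a'(+/-) against WT 1 was (1.84%). In zQ175 against zQ175:CK2a'(+/-) 2 were (1.14%). Of the 92, 52 were lower and 40 higher in zQ175 against WT (median log2 fold change -0.04). Tapbp (chr17:33915899-33929292), the tapasin that bridges class I molecules to the peptide transporter, had the lowest p there. It was at 16.6, 15.9, 19.5, 16.0 and 15.8 CPM in WT and at 14.0, 9.04, 13.7, 13.9 and 12.8 in zQ175, with no overlap, and its log2 fold change was -0.40 (SE 0.139, interval -0.69 to -0.11, adjusted p = 0.188). Tapbp was also lower in CK2a'(+/-) than in WT (-0.42, SE 0.162, adjusted p = 0.999), and its interaction was 0.71 (SE 0.213, unadjusted p = 0.0033, adjusted p = 0.811). Psmb8 (chr17:34197721-34201454), an immunoproteasome subunit, and Lgals3bp followed in zQ175 against WT at -0.84 and -0.69 (adjusted p = 0.335 and 0.345). Tapbp and Psmb8 lie in the H2 interval beside H2-K1, in which sequence differences between the mice were not tested. Without the 4 libraries that hold choroid plexus RNA, Psmb8 was at -0.49 and Lgals3bp at -0.27, and Lgals3bp was at -0.40 without WT replicate 1 alone.

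Nlrc5 (chr8:94434356-94527272), the transactivator of MHC class I genes, had the lowest p in zQ175:CK2a'(+/-) against WT. It was at 2.31, 3.59, 2.33, 3.18 and 2.16 CPM in zQ175:CK2a'(+/-), above all 5 WT libraries at 0.997, 0.838, 1.84, 1.11 and 1.76 CPM and all 5 zQ175 libraries at 1.59, 0.869, 0.861, 2.04 and 1.51 CPM. The CK2a'(+/-) libraries were at 1.82, 1.09 and 1.80 CPM, also below all zQ175:CK2a'(+/-) libraries and within the WT range. Nlrc5 lies near the deleted gene Csnk2a2 (chr8:95446096-95490039), and whether carriers share 129/SvEv sequence there after the crosses to C57BL/6J was not tested. The log2 fold change was 1.05 against WT (SE 0.321, interval 0.38 to 1.72, adjusted p = 0.33), and zQ175 against zQ175:CK2a'(+/-) gave -0.98 (SE 0.321, interval -1.64 to -0.31, adjusted p = 0.597). The next in zQ175:CK2a'(+/-) against WT were Ddx58, the gene for RIG-I, at 0.52 and Lgals9 at 0.60 (adjusted p = 0.443 and 0.464).

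Parp10, an ADP-ribosyltransferase, had the lowest p of the pathway in zQ175 against zQ175:CK2a'(+/-), at -1.48 (SE 0.431, interval -2.37 to -0.58, adjusted p = 0.501), with zQ175 at 0.307 to 1.12 CPM and zQ175:CK2a'(+/-) at 1.29 to 2.25 CPM and no overlap. Rnf213 was at -0.44 (adjusted p = 0.643) in the same comparison. In CK2a'(+/-) against WT the lowest p-values besides Tapbp belonged to Calr (-0.34) and Psme1 (-0.45), both at an adjusted p of 0.999, and Psme1 was at -0.21 without the 4 libraries that hold choroid plexus RNA. In zQ175:CK2a'(+/-) against CK2a'(+/-) they belonged to the interferon gamma receptor chain Ifngr2 (0.52, adjusted p = 0.301, and 0.0957 with only the 2 groups in the fit), Usp25 (0.29, adjusted p = 0.385) and Pdia3 (0.21, adjusted p = 0.421), and in the interaction, besides Tapbp, to Gbp6 (3.21, adjusted p = 0.902) and Calr (0.32, adjusted p = 0.916). The 7 MHC class II genes tested were all lower in zQ175 than in WT, at a median log2 fold change of -0.80 and a median SE of 0.692, and none had an unadjusted p under 0.05.

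Some markers of other cell types also differed between the groups. In zQ175 against WT, 5 of 9 oligodendrocyte markers and 3 of 10 markers of striatal projection neurons were called lower. Of all genes tested in this comparison, 1.10% were called and 13.9% had an unadjusted p under 0.05. Without WT replicate 3 or zQ175 replicate 5, 0 genes were called in all. Without the 4 libraries that hold choroid plexus RNA, 1 gene was. All 7 cortical and hippocampal excitatory neuron markers tested were higher, at a median log2 fold change of 1.27, with 1 called (Tbr1, 1.27, adjusted p = 0.0902) and 5 at an unadjusted p under 0.05. The call of Tbr1 was lost without WT replicate 1, 3 or 5, without any of zQ175 replicates 2 to 5 (adjusted p = 0.192 without replicate 5), without any of 3 libraries of the other groups, and without the 4 libraries that hold choroid plexus RNA (adjusted p = 0.536). Their summed level was 70.7 to 115 CPM in WT, 107 to 171 in zQ175 replicates 1 to 4 and 420 in zQ175 replicate 5, against 52.5 to 134 in the other groups. Their part in the levels of the interferon and class I genes was not tested.

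Several genes share sequence or position with others, which limits how their counts can be read. Of the 50-base stretches of the transcripts, 51.2% of those of Ifit3 also occur in Ifit3b and 57.6% of those of Oas1a in Oas1g, while 9.63% of those of H2-K1 and 12.8% of those of H2-D1 occur in transcripts of other genes and none of B2m. Exons of 11 of the 34 genes overlap those of another gene. Irf9 shares 123 bases with Rnf31 on the same strand, and on the opposite strand Irf5 shares 411 bases with Tnpo3, which had 18291 counts against 1102 for Irf5. Reads in exons shared on opposite strands can be told apart only if the counting used strand, which is not given in the sources used here, and strand cannot separate those shared on the same strand.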

How the data were processed

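Striatal total RNA of 18 mice was sequenced (Takara stranded total RNA kit, 2x50 bases). Per the labels and the study's methods, the authors trimmed reads (Trimmomatic), aligned them with HISAT2 2.1.0 to GRCm38, removed unmapped reads, duplicated mappings and alignments of low mapping quality, and deposited raw counts per gene made with Subread 1.6.2, with the exon length of each gene in bases. The strand setting and annotation release are not given in the sources used here. Sequencing was in 1 lane. The deposited counts were tested with edgeR 4.0.16 (R 4.3.3) by the quasi-likelihood F test on all 18 libraries with genotype as the only term, TMM scaling and filterByExpr. Of the 55421 genes, 20914 were tested. P-values were adjusted by the Benjamini-Hochberg method over all tested genes and called under 0.1, the study's threshold. Fold changes are log2, SEs were derived from the F statistic, and intervals are 95%. CPM use TMM library sizes. p-values measure the spread between mice.

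Gene symbols came from GENCODE M21 identifiers, and promoters from RefSeq. The genes, the lists of other pathway genes and markers, and the tests were chosen with earlier results of these data known. Values in every library were given for genes called in any comparison, for genes whose 5 zQ175 libraries did not overlap the 5 WT or 5 zQ175:CK2a'(+/-) libraries, and for the 3 lowest p-values in each comparison. Of the other pathway genes, those called and the 3 lowest p-values were named. The ligand genes, H2-T22 and H2-T23 were named besides.

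Alternatives were DESeq2 1.42.0 with defaults, its size factors in edgeR, no filter, a filter of 10 counts in 10% of libraries, only the 2 groups compared, a replicate block, the Xist level as covariate (the mice were of both sexes), a threshold of 0.05 and each library left out. Leaving out 4 libraries with choroid plexus RNA was added after seeing the data. The edgeR step was tested on simulated data. Same-numbered libraries of different groups did not deviate together (24 pairs, 2 with a correlation over 0.1), so the numbers were not taken as pairs.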

Additional observations from a re-analysis of the deposited data

Results flagged for a closer look

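A gap test (Dixon's, critical value 0.71 for 5 libraries) was applied to the CPM of the 34 genes in the 3 groups of 5, 102 tests in all, and it marked 11 values, in 8 libraries, where chance marks about 1 in 20 groups. WT replicate 4 stood above the rest of its group for B2m (51.4 CPM, others 39.7 to 43.1), Irf5 (3.95, others 3.24 to 3.39) and Zbp1 (1.11, others 0 to 0.279). WT replicate 1 stood above for Oasl2 (5.03 CPM, others 1.45 to 2.18) and Oas1a (0.648, others 0 to 0.0681), and WT replicate 5 for Tap1 (3.57, others 1.62 to 2.09).

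Of the zQ175 libraries, replicate 1 stood above for Irf5 (4.26 CPM, others 2.49 to 2.84), replicate 4 for Parp14 (7.78, others 3.13 to 4.45), and replicate 5 below for Oasl2 (2.10, others 2.77 to 2.95). Among zQ175:CK2a'(+/-) libraries, replicate 2 stood above for Ifi27 (21.2 CPM, others 6.53 to 10.7), the library with the highest summed choroid plexus markers, and replicate 4 for Oasl2 (6.79, others 1.35 to 2.82).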

How the results depend on the processing

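No gene of the group was called in 159 of 161 recalculated counts over the 6 comparisons. The exceptions were in zQ175 against WT, where DESeq2 and the fit without zQ175 replicate 2 each called 1 gene, B2m, so that leaving out 1 library gave 0 to 1 calls, and 0 to 0 in the other 5 comparisons. The 42 fold changes recalculated, of genes of the group, other pathway genes and markers, kept their direction in all 1125 values. Of these, 56 lost a call, all of them of C1qa, C1qb, C1qc or Tbr1, and 3 gained one (B2m in 2 settings, Ifngr2 in 1). With the replicate block, the count of the group was 0 in every comparison and all genes called fell from 230 to 98 in zQ175 against WT and from 124 to 12 in zQ175:CK2a'(+/-) against CK2a'(+/-). The replicate numbers did not pair the mice: 0 of 18 libraries correlated best with their own number, and same-number correlations ran from -0.17 to 0.15. The median of all genes moved by less than 0.01 under the other scaling.

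The background counts over all genes were much less stable. In zQ175 against WT 230 genes were called, against 855 with DESeq2, 451 without a filter, 0 with only the 2 groups, 51 at 0.05, 1 without the 4 libraries with choroid plexus RNA and 0 to 587 with 1 library left out (0 without WT replicate 3 or zQ175 replicate 5, 10 without WT replicate 1, 77 without zQ175 replicate 1, 133 without zQ175 replicate 3, 587 without WT replicate 2, and 145, 150 and 153 without zQ175:CK2a'(+/-) replicates 3 and 1 and CK2a'(+/-) replicate 2). In zQ175:CK2a'(+/-) against CK2a'(+/-) 124 became 322 with DESeq2, 297 without a filter, 461 with only the 2 groups, 77 with Xist as covariate, 27 at 0.05, 14 without the 4 libraries and 6 to 221 with 1 left out. The 3, 3, 3 and 1 calls of the other comparisons became 123, 39, 11 and 19 with DESeq2, 85, 51, 19 and 10 without a filter, and 1 to 34, 1 to 6, 1 to 9 and 0 to 2 with 1 library left out, and lay between 0 and 3 under every other alternative.

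Depth limits the low genes: Mx1 and Zbp1 each had no read in 5 libraries, and the median SE of a gene of the group was 0.36 in zQ175 against WT. For a gene of that SE, an unadjusted p under 0.05 needs a difference of about 2 SE. B2m was measured with 379 to 1157 reads per library. Read depth and the spread between mice were not separated in its SE.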
